A study of Mus musculus with 6 samples.

Results

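The mouse genome carries 39 Hox genes in the Hoxa, Hoxb, Hoxc and Hoxd clusters, and all 39 were present among the 23219 gene symbols measured here. Members were taken by name alone, as every symbol made of Hox, a cluster letter and a paralog number. This rule uses no measured value, though it was set with earlier results of these data known. Clustered Hox genes encode homeodomain transcription factors. Within a cluster they lie in the order of their paralog numbers, and genes with low numbers are used toward the head and genes with high numbers toward the tail of the embryo. In the embryonic kidney, mouse genetics ties Hox11 paralogs to the metanephric mesenchyme, where they act with Eya1 and Pax2 on Six2 and Gdnf, and Hox10 paralogs to the stroma.

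RNA was measured in whole kidneys at embryonic day 17 in 3 control libraries (genotype Mta2flx/flx, kidneys 5, 7 and 11) and 3 mutant libraries (genotype Six2Cre Mta2flx/flx, kidneys 6, 8 and 9). Both groups carried floxed alleles of Mta2, a subunit of the NuRD chromatin remodelling complex, and only the mutants carried Six2Cre, which acts in nephron progenitors and their descendants. Deletion and transgene therefore cannot be told apart, and Hox RNA from stroma, ureteric bud and vessels, where this Cre is not active, is in every value. Whether each library is a different embryo or litter is not stated, so p-values measure only how these samples vary, in part perhaps for technical reasons.

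The unit is base coverage. Each library held 794 to 1235 megabases of summed coverage, and BPM here means covered bases of a gene per 1000000 covered bases of the library. Mta2 was at 220, 198 and 210 BPM in controls 5, 7 and 11 and at 140, 189 and 146 BPM in mutants 6, 8 and 9, lower in every mutant, but limma gave adjusted p = 0.887. Of the nephron progenitor markers, 10 of 10 were at 1 BPM or more in all 6 kidneys, as were 11 of 12 stromal and 11 of 11 ureteric bud markers. Control 11 stood apart from the other libraries, with 22950 BPM on Lars2 against 739 to 4823 in the others, and mutant 9 carried muscle RNA, with a summed skeletal muscle list of 316 BPM against 4.61 to 11.3. The median over Hox genes and the fold changes of several Hox genes are also given without control 11, mutant 9 or both. Values of other genes, among them Eya1, Six2 and Meis2, are given with all 6 kidneys only.

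The part of a Hox gene that defines the family is the homeobox, 180 bases that encode the DNA-binding homeodomain. The homeoboxes of the Hox11 paralogs are shown because these genes are the nephron progenitor members and because the likeness of their letters decides whether short reads can be told apart. They are taken from GENCODE M21 transcripts, 5′ to 3′ on the coding strand, and capitals in Hoxc11 and Hoxd11 mark bases that differ from Hoxa11.
Hoxa11: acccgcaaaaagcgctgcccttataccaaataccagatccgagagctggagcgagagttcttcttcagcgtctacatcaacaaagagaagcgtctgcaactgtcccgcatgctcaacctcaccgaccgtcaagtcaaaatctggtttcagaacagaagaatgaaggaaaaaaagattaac
Hoxc11: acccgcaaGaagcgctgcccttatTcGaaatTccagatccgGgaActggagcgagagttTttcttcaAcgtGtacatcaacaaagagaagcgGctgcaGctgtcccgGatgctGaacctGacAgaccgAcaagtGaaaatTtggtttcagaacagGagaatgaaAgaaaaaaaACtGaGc
Hoxd11: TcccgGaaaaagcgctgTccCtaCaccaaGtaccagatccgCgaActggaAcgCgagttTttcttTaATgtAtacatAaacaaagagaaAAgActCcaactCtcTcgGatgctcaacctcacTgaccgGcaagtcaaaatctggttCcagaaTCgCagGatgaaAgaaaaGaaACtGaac
Hoxc11 differed from Hoxa11 at 24 of 180 bases and Hoxd11 at 35. In mm10 they lie in exon 2 of 2 of each gene, at chr6:52243402-52243581 on the minus strand (Hoxa11), chr15:102956480-102956659 on the plus strand (Hoxc11) and chr2:74683917-74684096 on the plus strand (Hoxd11).

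Differences were spread along the homeobox, so that Hoxa11 and Hoxd11 transcripts shared no identical run longer than 17 bases and Hoxa11 and Hoxc11 none longer than 20. Over all 741 pairs of members, the longest run shared by the transcripts had a median of 15 bases and a maximum of 52, between Hoxa6 and Hoxb4, and 2 pairs shared 50 or more. Overlap within a cluster also limits single values, since the counting is not stated to use strand. Antisense Hoxb3os covers 58.5% of the exon bases of Hoxb2 and 63.9% of those of Hoxb3, and Hoxa11os covers 24.8% of those of Hoxa11. Antisense genes also cover 23.3% of those of Hoxa7 and 21.2% of those of Hoxa3. A readthrough gene on the same strand, Gm28230, covers 68.6% of the exon bases of Hoxd3 and 45.1% of those of Hoxd4. Another gene on the same strand, Gm28309, covers 23.9% of those of Hoxd11. Values of these genes, and of members with smaller overlaps, may include reads of the partner.

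The kidneys expressed Hox genes of the middle and posterior paralog groups at the highest levels and were close to silent for the most posterior group, in both genotypes. Compared per kilobase of exon, 9 members were at 20 BPM per kb or more as a mean of the 6 kidneys, and their paralog numbers ran from 7 to 11: Hoxb7, Hoxd8, Hoxb9, Hoxd9, Hoxa10, Hoxc10, Hoxd10, Hoxa11 and Hoxd11. The same 9 were found with either of the other definitions of gene length. The leading member of each cluster was Hoxa10 at 35.4, Hoxb9 at 48.5, Hoxc10 at 34.2 and Hoxd11 at 82.7 BPM per kb. The Hoxd11 value depends on length, since its coding transcript has 1111 exon bases and all its transcripts together 4212. With the longer length it was at 21.8 BPM per kb and Hoxd8, at 42.1, led the Hoxd cluster.

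A further 20 members lay between 1 and 20 BPM per kb. Among them were Hoxb6 at 16.3, Hoxb2 at 15.4, Hoxb3 at 15.3 and Hoxc6 at 14.6 BPM per kb, while Hoxa3, at 1.35, and Hoxa4, at 1.04, were near the lower end. Paralog number alone did not set the level. Hoxa9, Hoxc9 and Hoxd9, with Hoxb9 the genes of paralog group 9, stood at 7.69, 4.08 and 32.3 BPM per kb, and Hoxc11 at 0.452 against 24.3 for Hoxa11.

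The remaining 10 members were under 1 BPM per kb. Among them were Hoxb1, Hoxd1, Hoxa2, Hoxc11, Hoxc12 and the 4 members of paralog group 13, which act at the tail end of the body, in the limb tips and in the genital tubercle. Hoxa13, Hoxb13, Hoxc12 and Hoxc13 were listed at 0 in all 6 kidneys. Hoxd13 was covered by 71 bases in control 7 and 102 in control 11, and by 0 in the others. Hoxd12 was the most posterior gene with a mean over 1 BPM per kb, at 3.24. Mutants 8 and 9 were at 7.05 and 6.51 BPM per kb, mutant 6 at 1.22 and the controls at 0.772 to 2.18.

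**Figure D1:**
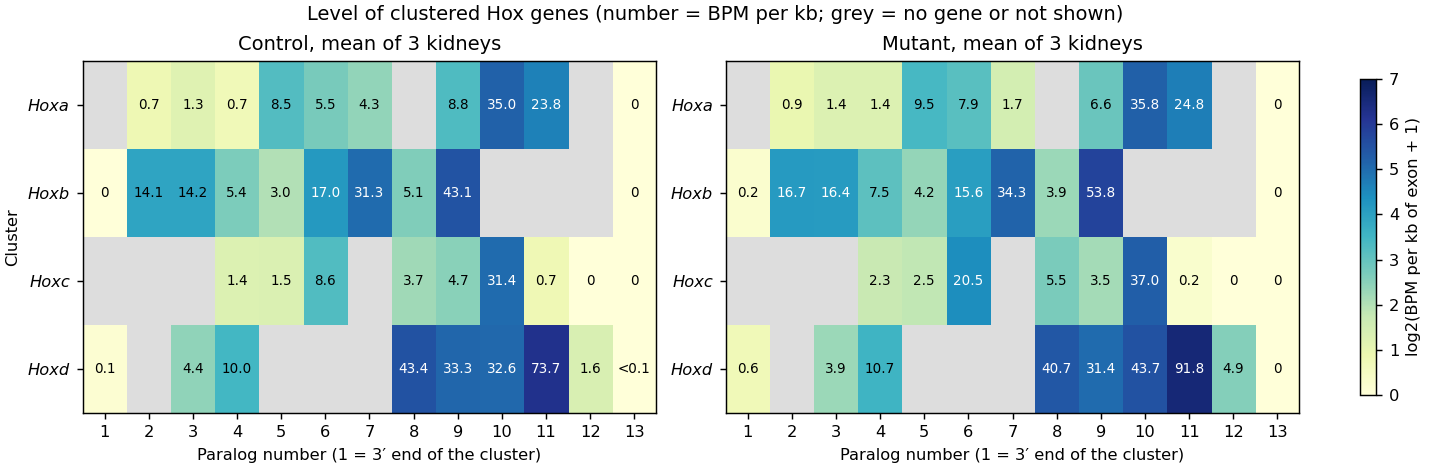
Mean level of clustered Hox genes in 3 control and 3 mutant kidneys, in BPM per kilobase of exon (numbers), coloured on a log2 scale, with clusters as rows and paralog numbers as columns; grey cells hold no gene or none shown. In both panels the darkest cells lie at paralog numbers 7 to 11 and the cells of paralog group 13 are at or near 0. Hoxc6 was at 8.61 BPM per kb in the control and 20.5 in the mutant panel.

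The comparison of genotypes asks how RNA levels differ between control kidneys and mutant kidneys, in which Mta2 deletion and the Six2Cre transgene come together. No clustered Hox gene passed it: of the 39 members, 30 reached 1 BPM in at least 3 kidneys and were tested, and limma called 0 of the 30 at an adjusted p of 0.05, where 0% of all 13977 genes tested were called. The smallest adjusted p among members was 0.706 (Hoxc6). An unadjusted p below 0.05 was found for 1 member, or 3.33%, against 5.60% of all genes tested; it was higher in mutants, as were 2.90% of all genes, while 2.70% were lower. The 3 kidneys of each genotype did not overlap for 3 members, or 10%, against 11.2% of all genes. Hoxc6 and Hoxc10 were the higher ones, where 6.10% of all genes were higher without overlap, and 1 member was lower, where 5.12% were lower. Both shares were near the background, so the Hox genes as a group did not stand apart by these counts.

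Of the tested members, 21 had a log2 fold change above 0 and 9 below, where 52.6% of all genes tested were above 0 and 47.4% below. The members' median was 0.20, against 0.02 over all genes tested. Without control 11, 14 of 28 tested members were above 0 and the median was -0.01, and without both control 11 and mutant 6 it was -0.054. Control 11 had the lowest value of the 6 kidneys for 15 of 30 members and the highest for 0, while over all genes it was the lowest for 24.0%. Its median deviation from the mean of the 6 kidneys was -0.31 on the log2 scale, against -0.00275 to 0.126 in the other kidneys.

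**Figure D2:**
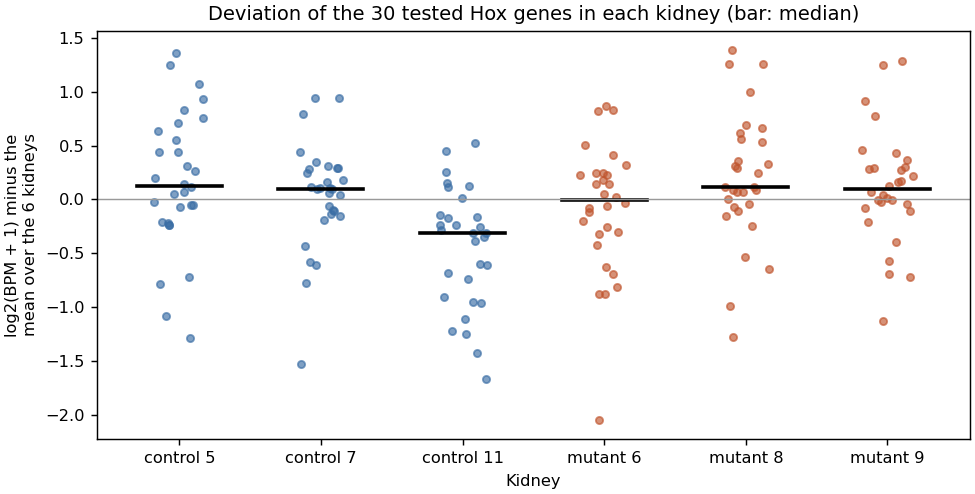
Each point is 1 of the 30 tested Hox genes, at its log2(BPM + 1) value in that kidney minus its mean over the 6 kidneys (blue, control; orange, mutant; bar, median). The points of control 11 lie lower than those of the other kidneys, with a median of -0.31.

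**Figure D3:**
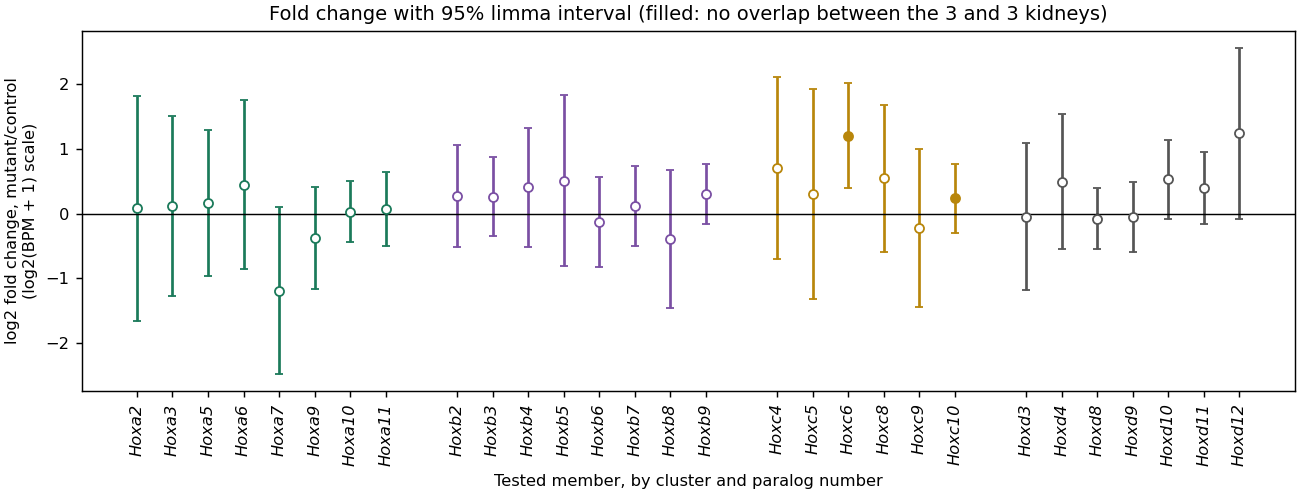
Log2 fold change of mutant over control kidneys for tested Hox genes, ordered by cluster and paralog number, on the log2(BPM + 1) scale with 95% limma intervals that are not adjusted for the number of genes. The interval leaves out 0 for Hoxc6 alone, and filled points mark Hoxc6 and Hoxc10, whose groups did not overlap.

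Hox11 genes, which mouse kidney mesenchyme needs to induce the ureteric bud, gave no difference that passed the test. Hoxa11 (chromosome 6, 52242106 to 52245810, minus strand) was at 59.7, 59.1 and 44.2 BPM in controls 5, 7 and 11 and at 57.2, 52.4 and 60.4 BPM in mutants 6, 8 and 9. The groups overlapped, with control 11 the lowest kidney. The means were 54.3 ± 8.80 and 56.6 ± 3.98 BPM (SD, n = 3 each). The log2 fold change came to 0.07 (SE 0.28, 95% interval -0.50 to 0.64, limma adjusted p = 0.985). The exact permutation test over kidneys (two-sided) gave p = 0.8, where 3 against 3 kidneys cannot go below 0.1. Without control 11 the log2 fold change was -0.07. In bulk tissue, fewer cells of a type and less RNA per cell cannot be told apart.

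Hoxd11 (chromosome 2, 74679557 to 74687016, plus strand), which acts redundantly with Hoxa11 in mouse kidney growth, was at 101, 99.0 and 45.3 BPM in controls 5, 7 and 11 and at 103, 113 and 89.2 BPM in mutants 6, 8 and 9. Control 11 was at less than any other kidney, and the other 5 lay between 89.2 and 113 BPM. Its log2 fold change of 0.39 (SE 0.27, 95% interval -0.16 to 0.95, limma adjusted p = 0.896; exact p = 0.4) became 0.02 without control 11. With all 6 kidneys, neither the Hoxa11 nor the Hoxd11 interval reached below -0.50, and both included values above 0, so equal levels were not shown.

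Hoxc11 (chromosome 15, 102954427 to 102957708, plus strand), the Hox11 gene of the Hoxc cluster, was barely detected and did not reach the level set for testing. It was at 3.50, 0 and 0.780 BPM in controls 5, 7 and 11 and at 0, 0 and 1.20 BPM in mutants 6, 8 and 9. No genotype held it in every kidney, and the exact permutation p was 0.7. The difference of mean log2 levels was -0.62, or -0.04 without control 5. Per kilobase, Hoxd11 made up 67.4% to 81.6% of the summed Hox11 level in each kidney, a share that rests on its shorter exon length.

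Hoxa11as is the antisense partner of Hoxa11 (named Hoxa11os in the annotation). Of 12 noncoding symbols listed for the clusters, 8 were present among the symbols measured, and only Hoxa11as had enough coverage to test. Other antisense genes that overlap Hox exons, such as Hoxb3os, were not among the 8. Hoxa11as was at 15.5, 14.5 and 28.9 BPM in controls 5, 7 and 11 and at 12.7, 18.2 and 18.04 BPM in mutants 6, 8 and 9, with a log2 fold change of -0.20 (limma adjusted p = 0.969). Control 11, where Hoxa11 was lowest, had the highest antisense value, so that the ratio of Hoxa11 to Hoxa11as was 1.53 there and 2.88 to 4.50 in the other kidneys. Hotair and the miRNA genes Mir10a, Mir10b, Mir196a-1, Mir196a-2, Mir196b and Mir615 were at 0.905 BPM or less in every kidney.

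Hox10 genes, whose joint loss in mice disturbs the renal stroma, were all expressed and none passed. Hoxa10 (chromosome 6, 52231197 to 52240854) was at 95.3, 103 and 132 BPM in controls 5, 7 and 11 and at 101, 102 and 134 BPM in mutants 6, 8 and 9, so the groups had nearly the same range. Its log2 fold change was 0.03 (SE 0.24, 95% interval -0.44 to 0.51, limma adjusted p = 0.992). Unlike Hoxa11 and Hoxd11, it was highest among the controls in control 11.

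Hoxd10 (chromosome 2, 74691924 to 74695105) was at 63.5, 84.2 and 29.99 BPM in controls 5, 7 and 11 and at 82.2, 81.9 and 74.2 BPM in mutants 6, 8 and 9. Mutants lay close together while the controls spread widely, with control 11 again the lowest. The log2 fold change was 0.54 (SE 0.30, limma adjusted p = 0.887), or 0.12 without control 11, and the exact p was 0.4.

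Hoxc10 (chromosome 15, 102966796 to 102971893) was at 54.9, 59.1 and 65.6 BPM in controls 5, 7 and 11 and at 77.2, 68.0 and 66.9 BPM in mutants 6, 8 and 9. Every mutant was above every control, though mutant 9 exceeded control 11 by little, and the difference was small. The means were 59.9 ± 5.38 and 70.7 ± 5.65 BPM (SD, n = 3 each). In log2 terms the fold change was 0.24 (SE 0.26, limma adjusted p = 0.931), with exact p = 0.1, the smallest value possible. With median-of-ratios scaling in place of library totals its groups overlapped.

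**Figure D4:**
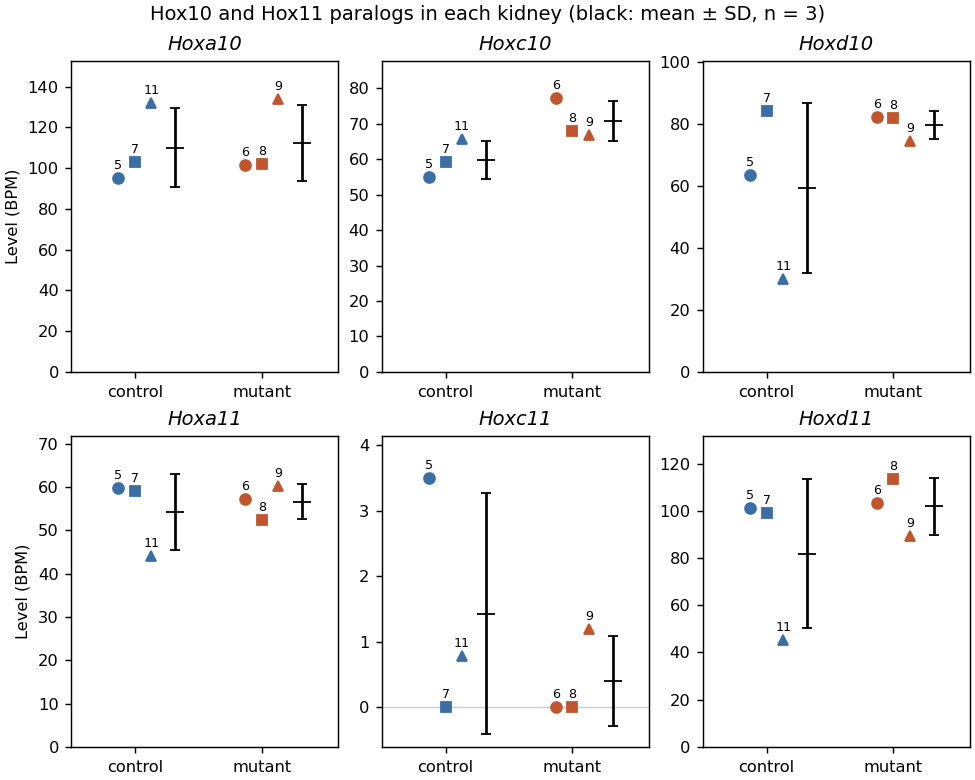
Level of the Hox10 (upper row) and Hox11 (lower row) genes in each kidney, in BPM on linear axes (blue, control; orange, mutant; kidney numbers beside the points; black, mean ± SD, n = 3). Control 11 is the lowest kidney for Hoxd10, Hoxa11 and Hoxd11 and the mutants are all above the controls for Hoxc10 only.

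Hoxc6, a gene of the thoracic body region, showed the clearest difference among the members. The gene (chromosome 15, 102998257 to 103011881, plus strand) was at 17.4, 13.2 and 10.2 BPM in controls 5, 7 and 11 and at 37.4, 34.1 and 25.7 BPM in mutants 6, 8 and 9. All 3 mutants were above all 3 controls, and the lowest mutant was 25.7 BPM against 17.4 BPM in the highest control. The means were 13.6 ± 3.64 and 32.4 ± 6.02 BPM (SD, n = 3 each), so mutant kidneys held 238% of the control level. On the log2 scale the fold change was 1.21 (SE 0.40, 95% interval 0.40 to 2.01, unadjusted p = 0.00449), and limma gave adjusted p = 0.706. It did not pass, the exact permutation p was 0.1, and the authors' deposited table gives an unadjusted p of 0.00983.

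Leaving out any single kidney left the log2 fold change of Hoxc6 at 1.03 to 1.39. It was 1.36 without mutant 9, which carried muscle RNA, 1.18 without both control 11 and mutant 9, and 0.92 without both control 11 and mutant 6. Summed marker levels of other cell types also differed without overlap. The stromal list of 12 genes was at 2921 to 3465 BPM in control and 3522 to 4144 BPM in mutant kidneys, and the ureteric bud list of 11 genes was at 658 to 790 and 800 to 882 BPM. Both separations of the sums rested on 1 gene, left out after seeing the data. Without Fat4 the stromal sum was at 2323 to 2977 and 2657 to 3041 BPM, and without Calb1 the ureteric bud sum was at 589 to 725 and 686 to 722 BPM, with overlap in both. Gene by gene, 4 of the 12 stromal genes (Fat4, Pdgfra, Alx1 and Ntn1) were higher in every mutant and 0 were lower. Of the 11 ureteric bud genes, 1 (Calb1) was higher in every mutant and 0 were lower. Over all genes tested, 6.10% were higher without overlap and 5.12% were lower. In both lists 0 genes passed limma's adjusted threshold. The part of these cell types in the Hoxc6 and Hoxc10 values was not tested. The nephron progenitor list of 10 genes was at 635 to 651 BPM in control and 635 to 674 BPM in mutant kidneys and overlapped. However, 6 of its 10 genes separated the groups, 3 in each direction, where 11.2% of all genes tested did so in either direction. Eya1, Gdnf and Six2 were higher in every mutant. Cited1 (31.1 to 56.5 BPM in control, 9.96 to 26.9 in mutant), Meox1 (21.5 to 31.9 and 6.76 to 14.02) and Uncx (22.1 to 36.7 and 13.9 to 19.2) were lower in every mutant, and none passed limma's adjusted threshold.

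Other genes of the Hoxc cluster did not follow Hoxc6 in every kidney. Hoxc5 was at 0.219 BPM in mutant 6, where Hoxc6 was at its highest, and at 11.1 and 11.0 BPM in mutants 8 and 9, against 2.06 to 8.71 BPM in controls. Hoxc4 (0.793 to 5.40 BPM in control, 4.25 to 8.75 in mutant), Hoxc8 (3.89 to 8.91 and 7.99 to 12.6) and Hoxc9 (3.02 to 15.3 and 4.12 to 11.7) also overlapped between the groups. As a sum, the 9 Hoxc genes were at 90.4 to 106 BPM in control and 131 to 140 BPM in mutant kidneys, the only cluster of the 4 without overlap. Hoxc6 and Hoxc10 were left out of the sum after their values were seen. Without Hoxc6 the sum was at 80.2 to 92.8 and 93.8 to 110 BPM and still did not overlap, though the gap was narrow. Without Hoxc6 and Hoxc10, whose groups also did not overlap, the sum of the other 7 was at 14.6 to 33.8 and 16.6 to 42.9 BPM and overlapped.

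Hoxa7 and Hoxd12, named after their values were seen, came next to Hoxc6 by unadjusted p, and in both the groups overlapped. Hoxa7, a gene of the trunk, was at 17.3, 7.83 and 6.75 BPM in controls 5, 7 and 11 and at 2.88, 1.94 and 8.22 BPM in mutants 6, 8 and 9. Mutant 9 lay among the controls. The log2 fold change was -1.19 (SE 0.64, limma adjusted p = 0.887, unadjusted 0.0693). Hoxd12, a gene of the distal limb and tail, was at 1.96, 4.32 and 5.53 BPM in controls and at 3.10, 17.9 and 16.5 BPM in mutants 6, 8 and 9. Mutants 8 and 9 were above all controls and mutant 6 was not, and the log2 fold change was 1.24 (SE 0.66, limma adjusted p = 0.887, unadjusted 0.0662).

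**Figure D5:**
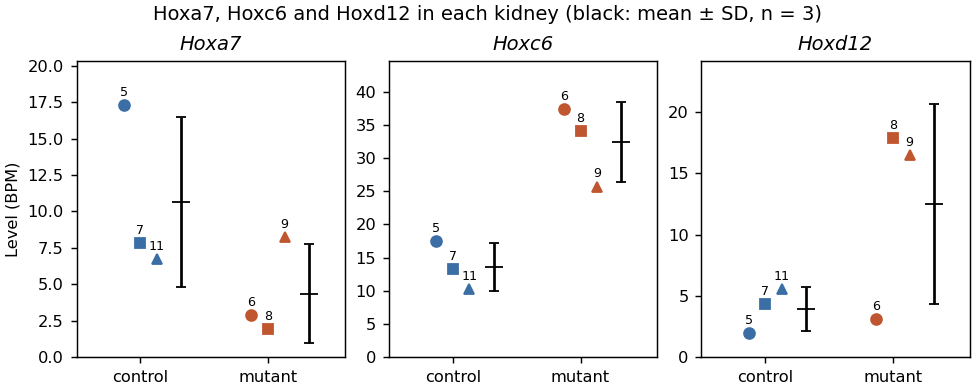
Level of Hoxa7, Hoxc6 and Hoxd12 in each kidney, in BPM on linear axes (blue, control; orange, mutant; kidney numbers beside the points; black, mean ± SD, n = 3). Groups are apart for Hoxc6, while mutant 9 for Hoxa7 and mutant 6 for Hoxd12 lie within the control range.

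No member of the Hoxb cluster separated the genotypes. Hoxb9, its leading member, was at 105, 127 and 101 BPM in controls 5, 7 and 11 and at 116, 130 and 169 BPM in mutants 6, 8 and 9. Mutant 9 was the highest kidney and the groups overlapped (log2 fold change 0.31, SE 0.23, limma adjusted p = 0.909, or 0.15 without mutant 9). Hoxb7, whose promoter is widely used to mark the ureteric bud and Wolffian duct, was at 35.5 to 45.1 BPM in control and 38.99 to 49.5 BPM in mutant kidneys. The 8 tested members of the cluster had log2 fold changes from -0.39 (Hoxb8) to 0.51 (Hoxb5). Hoxb1 was listed at 0 in 5 kidneys and had 1187 covered bases in mutant 6, and Hoxb13 was at 0 throughout.

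In the Hoxd cluster, Hoxd8 and Hoxd9 stayed within the control range. Hoxd8 was at 126, 139 and 92.0 BPM in controls 5, 7 and 11 and at 99.3, 122 and 114 BPM in mutants 6, 8 and 9 (log2 fold change -0.08, 95% interval -0.55 to 0.40). Hoxd9 was at 59.7 to 93.2 BPM in control and 65.2 to 68.6 BPM in mutant kidneys (log2 fold change -0.05). Among members with a control mean above 20 BPM, Hoxd4 had the highest control SD relative to its mean (85.8%), though not the highest SD in BPM, with 49.4, 20.5 and 6.55 BPM in controls 5, 7 and 11, while mutants 6, 8 and 9 were at 27.4, 29.1 and 25.7 BPM. Hoxd3, whose exons largely lie under the readthrough gene, had a similar control spread of 7.12 to 28.3 BPM. Hoxd1 was at 0 in controls 5 and 7 and mutant 6 and at 0.627 to 1.80 BPM in the others.

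Anterior and middle genes of the Hoxa cluster varied between kidneys of the same genotype. Hoxa5, which is known from lung and thoracic skeleton, was at 26.2, 16.3 and 5.44 BPM in controls 5, 7 and 11 and at 26.3, 21.2 and 5.98 BPM in mutants 6, 8 and 9. Each genotype thus held a kidney near 6 BPM and another near 26. Hoxa6 ran from 2.75 to 7.73 BPM in control and 3.87 to 9.19 BPM in mutant kidneys, and Hoxa9 from 19.7 to 39.6 and 16.2 to 27.9 BPM. Hoxa2 was at 0, 1.87 and 2.05 BPM in controls 5, 7 and 11 and at 0.586, 4.08 and 0.287 BPM in mutants 6, 8 and 9, and overlapped. Hoxa3 was at 2.41 to 4.36 and 2.84 to 4.28 BPM. Hoxa4 did not reach the level set for testing, with 0 BPM in control 5 and mutant 6 and 6.13 BPM in mutant 9.

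Hox proteins bind DNA with partners of the TALE homeodomain class, among them the Meis and Pknox proteins. Of 8 TALE genes tested, 5 had a log2 fold change above 0 and 3 below (median 0.13), and 0 passed over all genes. Meis2, a partner of posterior Hox proteins in the embryo, was at 57.5 to 111 BPM in control and 94.6 to 126 BPM in mutant kidneys and overlapped.

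Genes that work with or under Hox11 in the kidney mesenchyme had log2 fold changes on both sides of 0. Of 9 tested, 5 were above 0 and 4 below (median 0.34), 3 had an unadjusted p below 0.05, all higher in mutants, where 5.60% of all genes had one, and 0 passed over all genes. The groups did not overlap for 3 higher genes and 1 lower gene, Wt1, where 11.2% of all genes did not overlap. Eya1, the coactivator of the Hox11 complex, was at 51.7, 46.3 and 39.02 BPM in controls 5, 7 and 11 and at 74.4, 76.9 and 110 BPM in mutants 6, 8 and 9 (log2 fold change 0.90, limma adjusted p = 0.563). Gdnf, the ligand that draws out the ureteric bud, was at 34.3, 51.2 and 39.8 BPM in controls and at 60.5, 71.3 and 69.0 BPM in mutants 6, 8 and 9 (log2 fold change 0.68, limma adjusted p = 0.854). Six2, a target of the Hox11 complex whose regulatory sequence drives the Cre, was at 19.8, 8.93 and 17.6 BPM in controls and at 22.0, 26.9 and 48.3 BPM in mutants 6, 8 and 9, and had a log2 fold change of 1.01 (limma adjusted p = 0.854). Eya1, Gdnf and Six2 were each higher in all 3 mutants than in all 3 controls, while Hoxa11 and Hoxd11 overlapped. Other genes of the list lay the other way. Wt1, a regulator of mesenchyme survival and podocytes, was at 101 to 112 BPM in control and 73.5 to 93.9 BPM in mutant kidneys (log2 fold change -0.37, limma adjusted p = 0.896). Pax2, a partner of the Hox11 complex, was at 10.4 to 24.9 and 6.69 to 12.4 BPM and overlapped (log2 fold change -0.83, limma adjusted p = 0.887).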

How the data were processed

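Total RNA of embryonic day 17 kidneys was ribosome-depleted before library construction with an Ion Torrent total RNA kit, as the labels' protocols state. The build mm10 and bedtools are named without role or version, per the submitters' processing notes; no aligner or annotation is given in the sources used here. As deposited, the signal is covered bases per gene plus 1, times a factor per library: each value over its column minimum was whole (100% of values, tolerance 0.001). The deposited group means, ratio and unadjusted p-value are the authors'. The floor was removed and bases were scaled to 1000000 per library (BPM). Because these are not read counts, no count model was run. Genes at 1 BPM or more in at least 3 libraries were tested (13977 of 23219) on log2(BPM + 1), which understates changes of low genes, with limma 3.58.1 in R 4.3.3 (trend, robust, two-sided, Benjamini-Hochberg over all genes tested). The fit was tested on simulated data. Lengths, positions and transcript sequences are from GENCODE M21 (mm10, 1-based, basic set). In full are the Hox10 and Hox11 genes, the leading member per cluster, and members with unadjusted p below 0.05 or no overlap; others are given by range, or singled out after their values were seen. Some genes this rule names are not reported here. Members and lists were chosen with earlier results of these data known. Depth in reads is unknown, and intervals cover the spread between libraries only.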

Additional observations from a re-analysis of the deposited data

How the results depend on the processing

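Clustered Hox genes called stayed at 0 under all 16 alternatives run. All genes called, 0 as reported, came to 1 with quantile normalization, 1 without the limma trend, 4 with sample weights, 0 to 8 with each library left out (8 without control 11, 3 without mutant 8), 22 after removing control 11 plus mutant 6, and 4 after removing control 11 plus mutant 9, the last chosen after seeing the data. Members without overlap, 3 as reported, came to 4 to 7 with each library left out (7 without mutant 6, 5 without mutant 9), 8 without both control 11 and mutant 6 and 9 without both control 11 and mutant 9, where fewer kidneys make separation easier. The median log2 fold change of tested members ran from -0.01 (without control 11) to 0.27 with each library left out, and was -0.054 after removing control 11 plus mutant 6. That of Hoxa11, 0.07 as reported, ran from -0.07 (without control 11) to 0.14 with each library left out, and was -0.08 without both control 11 and mutant 6 and -0.12 without both control 11 and mutant 9. That of Hoxd11 ran from 0.02 to 0.59 with each library left out, and that of Hoxa10, 0.03 as reported, from -0.10 (without mutant 9) to 0.17, with 0.24 after removing control 11 plus mutant 6, being -0.06 without control 5 and -0.01 without control 7. The Hoxc11 difference ran from -1.12 to -0.04 with each library left out. No paired analysis was possible because the groups share no replicate number. Low members are limited by depth, as 1 BPM is 794 to 1235 covered bases.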

Other observations

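Neighbours and regulators of the Hox clusters also held 0 genes past an adjusted p of 0.05 in limma over all genes tested. Of 12 flanking genes tested, 7 had a log2 fold change above 0 and 5 below (median 0.07). An unadjusted limma p below 0.05 was found for 1 of the 12, where 5.60% of all genes tested had one. The groups did not overlap for 2 of the 12, Atp5g3 and Mtx2, where 11.2% of all genes tested did not overlap. Atp5g3, a subunit of ATP synthase encoded beyond the 5′ end of the Hoxd cluster, was at 302, 256 and 284 BPM in controls 5, 7 and 11 and at 193, 194 and 192 BPM in mutants 6, 8 and 9. It was lower in every mutant, with a log2 fold change of -0.53 (unadjusted p = 0.0104, limma adjusted p = 0.854). Mtx2, a mitochondrial import gene at the other end of the same cluster, was at 33.8 to 47.5 BPM in control and 49.8 to 70.7 BPM in mutant kidneys, higher in every mutant (log2 fold change 0.55, limma adjusted p = 0.887). Evx1 and Evx2, homeobox genes next to the posterior ends of the Hoxa and Hoxd clusters, were listed at 0 in all 6 kidneys, as paralog group 13 nearly was.

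Of 22 tested regulators of the clusters, among them Polycomb and trithorax group genes, 14 were above 0 and 8 below (median 0.03), 0 had an unadjusted p below 0.05 and 0 separated the groups. The list held 27 symbols, of which 25 were present. The trithorax group genes Kmt2a and Kmt2b were not found under those symbols and so were not assessed. Ctcf, which encodes an insulator protein, was at 142 to 219 BPM in control and 213 to 224 BPM in mutant kidneys. Cdx2 and Cdx4, caudal-type activators of posterior Hox genes in the early embryo, were at 0 in all 6 kidneys.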
